A study of Homo sapiens with 24 samples.

Results

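The genes described here are HLA-B, HLA-C, HLA-E, HLA-F, HLA-G, B2M and NLRC5, which were taken by symbol from the gene count files and make up 7 of the 26475 symbols listed there. HepG2 cells, an established human hepatocellular carcinoma line, were sequenced in 24 libraries, in 8 groups of 3 replicates. The groups were DMSO, the solvent control, ABBV-075 at 50 nM, ABBV-744 at 50 nM (ABBV-744 low) and at 500 nM (ABBV-744 high), IFNg (interferon gamma), and IFNg together with each of these inhibitor treatments, named IFNg+ABBV-075, IFNg+ABBV-744 low and IFNg+ABBV-744 high. The study's methods give 12 h for ABBV-075, while the dose of IFNg and the times of the IFNg and ABBV-744 treatments are not given in the sources used here. All groups are the same single cell line, so the libraries describe cultures of HepG2 and not livers or tumours. In bulk RNA such as this, fewer cells with a transcript and less of it per cell cannot be told apart.

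HLA class I molecules are cell surface proteins that show peptides from inside the cell to CD8+ T cells and natural killer cells. A heavy chain encoded by an HLA gene pairs with the invariant light chain beta-2 microglobulin, the product of B2M, and is loaded with peptide in the endoplasmic reticulum. HLA-B and HLA-C are classical heavy chains, whereas HLA-E, HLA-F and HLA-G are non-classical ones with few alleles, and HLA-E is known as a ligand of the NKG2A receptor of natural killer cells. NLRC5 is a protein of the NOD-like receptor family that acts in the nucleus as the transactivator of class I promoters, and it is itself a target of interferon gamma. ABBV-075 and ABBV-744 inhibit BET proteins, readers of acetylated histones. ABBV-075 blocks both of their bromodomains, while ABBV-744 is selective for the second.

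Between 2978982 and 4304103 reads per library were counted on the strand of a gene, with a median of 3462418.5. Reads that align to several places were left out of these counts and took between 56% and 69.4% of all reads. HepG2 markers were present in every library (ALB between 1727 and 3718 CPM), 3 of 8 markers of leukocytes, endothelium and fibroblasts (PTPRC, CD3E and COL1A2) were at 0 counts throughout, and CD68 alone among the other 5 exceeded 5 counts, with 25 to 86. HEXIM1, a gene that BET inhibitors are known to raise, rose with ABBV-075 (log2 fold change 1.41) and with ABBV-744 high (0.74), while its value with ABBV-744 low was 0.29 and did not pass the test. With IFNg its mean was 47.3 CPM without inhibitor, 134.9 with ABBV-075 and 71.5 with ABBV-744 high. It was 49.5 CPM in IFNg+ABBV-744 low, whose libraries (38.7 to 55.5) overlapped those of IFNg alone (44.8 to 49.3). IRF1, which IFNg induces, rose by 4.26 on the log2 scale with IFNg. The ABBV-075 libraries were the least alike of any group, with a chi-square per degree of freedom of 16.57 between replicates 1 and 3, against 1.658 to 8.366 for every other pair of replicates in the series.

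The HLA heavy chain genes resemble each other, and reads that fit several of them were not counted. Of all 50-base windows of the canonical HLA-B transcript 2.56% also occur exactly in another gene's annotated transcripts, and the share was 6.76% for HLA-C, 6.16% for HLA-E, 1.89% for HLA-F and 5.28% for HLA-G. B2M and NLRC5 share no such window with another gene, and at 100 bases the highest share was 1.23%, for HLA-G. The HLA windows are taken from the reference alleles and HepG2 carries its own, so the fraction of HLA reads lost to multiple alignment was not measured. HLA-F overlaps HLA-F-AS1 on the opposite strand, and the counts used here are those of the gene's own strand.

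By the GENCODE v44 annotation of GRCh38, HLA-F lies on chromosome 6 from 29722775 to 29738528, HLA-G from 29826967 to 29831125 and HLA-E from 30489509 to 30494194, all on the plus strand. HLA-C follows from 31268749 to 31272130 and HLA-B from 31353872 to 31367067, both on the minus strand. B2M is on chromosome 15 from 44711358 to 44718851 and NLRC5 on chromosome 16 from 56989485 to 57083531, both on the plus strand. The RefSeq promoter table of GRCh38.p14 matched 5 of the 7 genes, and HLA-E and NLRC5 were not matched. The 150 bases from 200 to 51 before the RefSeq start are printed for these 5, because class I promoters are known to hold an interferon-stimulated response element next to the SXY module, on which NLRC5 acts. Capitals mark matches, on either strand, to GAAANNGAA and GAANNGAAA (cores of the interferon-stimulated response element in both spacings), TGACGC (X2 box), CCAAT (NF-Y box), GGGNNTTCC (NF-kB), TTCNNNGAA (gamma-activated site) or TGACGTCA (CRE).
HLA-B, chr6:31357230-31357379, minus strand: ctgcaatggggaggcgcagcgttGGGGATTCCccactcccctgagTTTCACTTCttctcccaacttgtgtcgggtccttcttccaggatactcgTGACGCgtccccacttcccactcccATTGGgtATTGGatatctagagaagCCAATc
HLA-C, chr6:31272143-31272292, minus strand: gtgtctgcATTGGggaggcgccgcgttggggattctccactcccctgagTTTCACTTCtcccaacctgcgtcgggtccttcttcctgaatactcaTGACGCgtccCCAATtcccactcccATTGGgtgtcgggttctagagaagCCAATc
HLA-F, chr6:29723234-29723383, plus strand: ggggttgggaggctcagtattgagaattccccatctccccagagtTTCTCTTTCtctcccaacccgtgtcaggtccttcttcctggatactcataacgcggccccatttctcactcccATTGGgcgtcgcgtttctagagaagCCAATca
HLA-G, chr6:29827625-29827774, plus strand: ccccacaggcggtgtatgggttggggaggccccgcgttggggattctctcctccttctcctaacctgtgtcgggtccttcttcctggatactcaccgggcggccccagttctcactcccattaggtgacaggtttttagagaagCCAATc
B2M, chr15:44711317-44711466, plus strand: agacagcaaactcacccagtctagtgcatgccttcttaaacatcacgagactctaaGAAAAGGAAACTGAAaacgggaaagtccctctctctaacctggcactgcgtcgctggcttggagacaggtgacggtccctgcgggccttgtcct

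HLA-B and HLA-C were the most alike of these windows, with 87% identical columns when aligned, against 79.5% for HLA-C and HLA-F and 74.1% for HLA-C and HLA-G. HLA-B held GAANNGAAA at -155 to -147 from its start, and HLA-C at -151 to -143. HLA-F held the other spacing, GAAANNGAA, at -155 to -147, and B2M held it at -144 to -136 and again, overlapping by 3 bases, at -138 to -130. No match to either spacing was found in the HLA-G window that is shown, which starts from the RefSeq start at 29827825, the one of 3 listed for HLA-G whose window is most like those of the other HLA genes. TGACGC was present in HLA-B at -106 to -101 and in HLA-C at -105 to -100. CCAAT in either direction was found 3 times in HLA-B, 4 times in HLA-C, 2 times in HLA-F, and at 1 place in HLA-G. Of 35116 RefSeq promoters of the same table, each spanning 250 bases before to 50 after a start, 8.11% hold GAAANNGAA, 7.66% GAANNGAAA, 9.14% TGACGC, 34.6% CCAAT, 6.58% GGGNNTTCC, 7.66% TTCNNNGAA and 1.85% TGACGTCA. GAANNGAAA was added to the search after these promoters had been read, and a match is a description of the letters only.

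In DMSO-treated cells the light chain was the most abundant of the 7 transcripts. Per kilobase of the canonical transcript, B2M had a mean level of 286 CPM per kb, HLA-C 79.8, HLA-B 38.9, HLA-E 30.1, HLA-F 2.17 and NLRC5 1.39 CPM per kb. HLA-G was at or near 0, with 0 to 2 counts in each of the 24 libraries, so that every group was at or under the floor of 3 counts per library and no change of HLA-G was measured. HLA-F was also low, with 6 to 26 counts over the 24 libraries.

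IFNg raised the classical heavy chains, the light chain, HLA-E and the transactivator NLRC5, with HLA-E and NLRC5 rising the most. HLA-E read 79.9, 69.7 and 80.1 CPM in the 3 DMSO libraries and 882, 848 and 871 CPM in the 3 IFNg libraries, where CPM stands for counts scaled by depth and by TMM over all 24 libraries. NLRC5 read 12.6, 8.21 and 7.39 CPM in DMSO and 138, 141 and 162 CPM with IFNg. No DMSO library of either gene came near an IFNg library. The log2 fold change was 3.50 ± 0.08 (SE, n = 3 against 3, 11.3-fold) for HLA-E, with adjusted p = 7.38e-30 by edgeR's quasi-likelihood test, where p-values were adjusted over all genes tested by the method of Benjamini and Hochberg. It was 3.98 ± 0.14 (15.8-fold) for NLRC5, with adjusted p = 7.14e-24 in the same edgeR test.

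HLA-B, a classical heavy chain, read 61.9, 53.7 and 63.7 CPM in DMSO and 162, 164 and 170.1 CPM with IFNg. HLA-C read 126, 119 and 124 CPM and 233, 266 and 289 CPM, and B2M 265, 281 and 264 CPM and 740.2, 669 and 635 CPM. The IFNg libraries lay above all DMSO libraries for these 3 genes, and the share of all genes for which they did so was not counted. HLA-B rose by 1.47 ± 0.093 on the log2 scale (2.77-fold, adjusted p = 1.52e-15 by edgeR's quasi-likelihood test). HLA-C rose by 1.09 ± 0.084 (2.13-fold) and B2M by 1.33 ± 0.072 (2.52-fold). HLA-F read 2.15, 4.88 and 2.62 CPM in DMSO and 7.09, 5.90 and 5.87 CPM with IFNg. Its groups did not overlap, yet the log2 fold change of 0.93 ± 0.33 missed the threshold (adjusted p = 0.132 by edgeR's quasi-likelihood test), and it passed only without DMSO replicate 2, the highest DMSO library (1.38, adjusted p = 0.0433 by the same edgeR test).

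Of the 6 members tested, 5 rose with IFNg at an adjusted p of at most 0.05, a call that 3.46% of all 11217 genes tested received. HLA-E and NLRC5 also passed the study's thresholds, which also ask for a log2 fold change of 1.5 or more in size, as did 0.847% of genes. The 5 calls held in each of the 16 alternatives and leave-one-out fits of this comparison, with log2 fold changes of 3.44 to 3.54 for HLA-E and 3.84 to 4.23 for NLRC5. Correcting the libraries for GC content, which changes several results given further on, left them at 3.44 and 3.91.

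**Figure D1:**
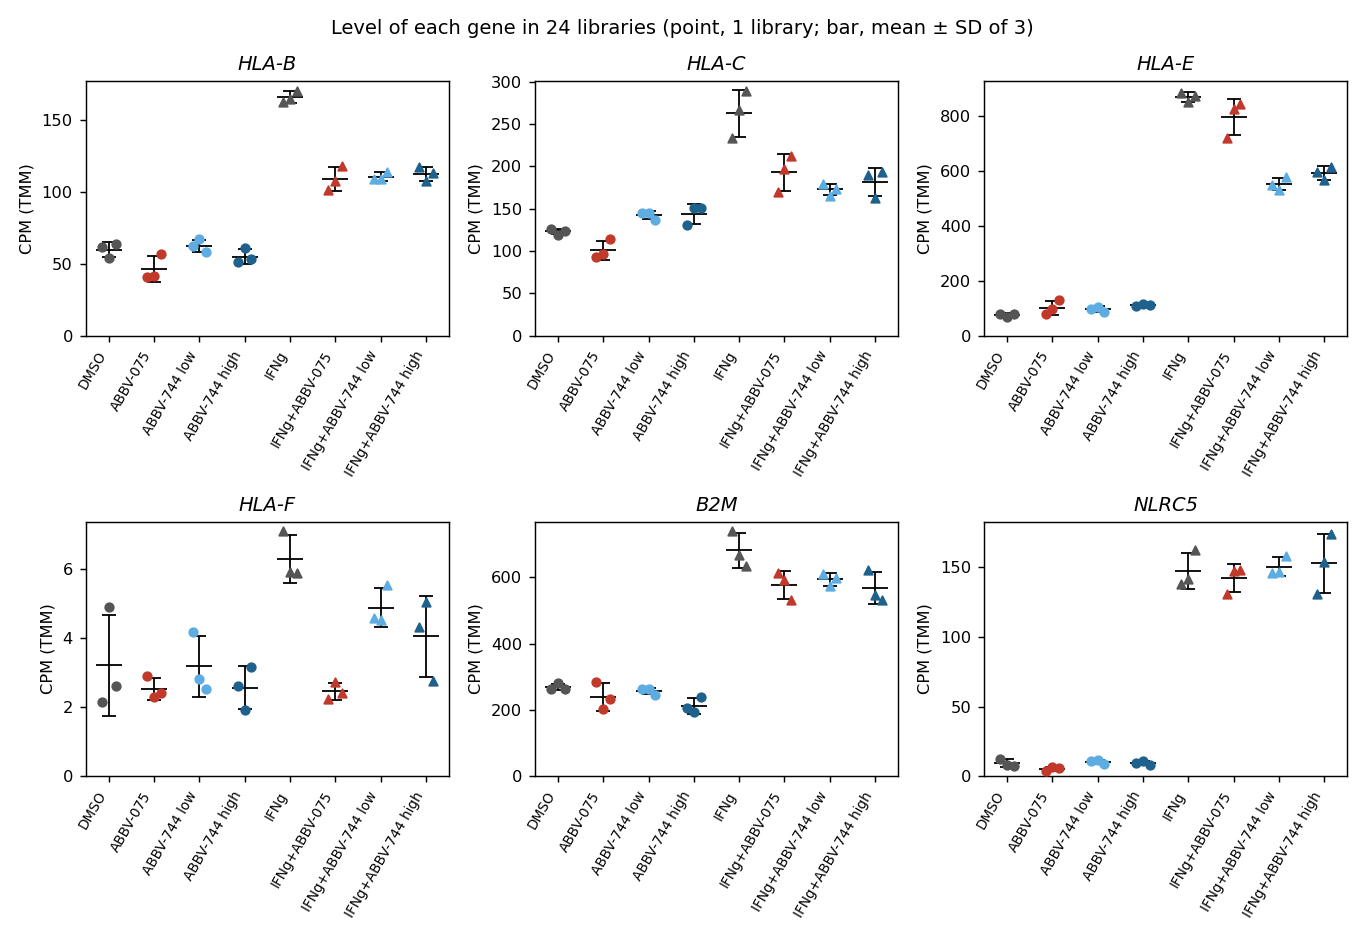
Level of 6 genes, as CPM after TMM scaling on linear axes that start at 0, in the 3 libraries of each of 8 groups (circles without IFNg, triangles with IFNg), with the mean and SD as bars. HLA-B, HLA-C, HLA-E, B2M and NLRC5 separate fully by IFNg, with NLRC5 between 3.62 and 12.6 CPM without IFNg and between 130.8 and 173.5 CPM with it, whereas HLA-F overlaps. The share of all genes that separate in this way was not counted.

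The ratio between heavy and light chain transcripts within a library does not depend on how libraries are scaled to each other. It was not corrected for GC content, which is 39.13% for B2M and 55.06% to 60.05% for HLA-B, HLA-C, HLA-E and HLA-F, so a GC shift between libraries can move it. In the DMSO libraries the log2 CPM of HLA-E minus that of B2M was between -2.0 and -1.72, and in the IFNg libraries it was 0.25, 0.34 and 0.46. HLA-E therefore went from below B2M in every DMSO library to above it in every IFNg library, a mean difference of 2.17 (exact two-sided permutation test, p = 0.1, the smallest p that 3 libraries against 3 can give). HLA-B minus B2M was -2.38, -2.09 and -2.04 in DMSO and -2.19, -2.02 and -1.90 with IFNg, and these ranges overlapped (mean difference 0.13, exact permutation p = 0.4). For HLA-C the values were -1.23, -1.09 and -1.07 against -1.67, -1.33 and -1.13, with a mean difference of -0.25 (exact permutation p = 0.2), and for HLA-F the mean difference was -0.41 (exact permutation p = 0.2). Counts per transcript length put HLA-E at 340.4 CPM per kb with IFNg, still below B2M at 722 CPM per kb.

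**Figure D2:**
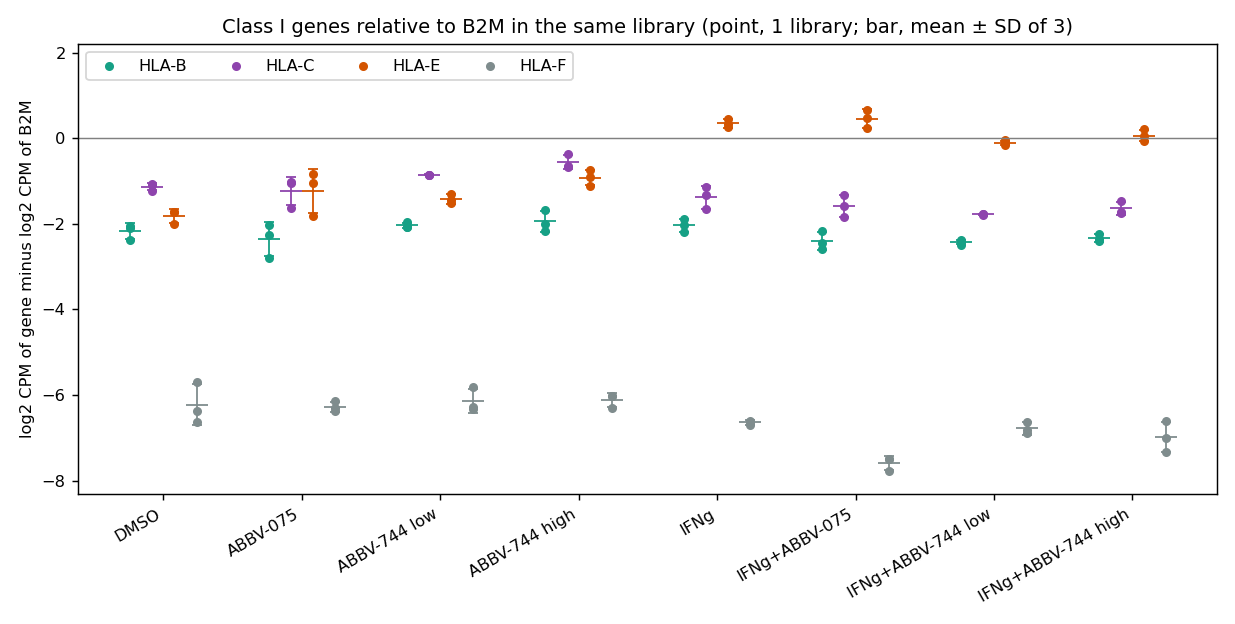
Log2 CPM of each class I heavy chain gene minus log2 CPM of B2M in the same library, for the 3 libraries of each group, with mean and SD. HLA-E moves from -1.81 (mean of DMSO) to 0.35 (mean of IFNg), while HLA-B and HLA-C stay below B2M in every group. The values are not corrected for GC content.

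Without IFNg, most class I genes did not pass the test with an inhibitor. With ABBV-075, 4 of 6 members had an unadjusted p under 0.05 by edgeR's quasi-likelihood test. With ABBV-075, HLA-B read 40.8, 41.6 and 56.8 CPM, HLA-C 92.6, 97.0 and 114 CPM and HLA-E 80.6, 96.8 and 130.2 CPM, and replicate 3 was the highest library for each. Against DMSO the log2 fold changes were -0.39 ± 0.16, -0.31 ± 0.12 and 0.40 ± 0.17, none of which passed the test (adjusted p of 0.0724, 0.0626 and 0.0767 by edgeR's quasi-likelihood test). NLRC5 read 3.62, 6.60 and 6.01 CPM, below all DMSO libraries. It fell by 0.82 ± 0.30 on the log2 scale (1.77-fold lower, adjusted p = 0.0446 by edgeR's quasi-likelihood test), the 1 call among 6 members tested, where 39.3% of all genes were called. That call was lost in 5 of the 6 fits that left out a library (for example -0.57, adjusted p = 0.154 by the same edgeR test, without ABBV-075 replicate 1, and -0.57, adjusted p = 0.198, without DMSO replicate 1), and with DESeq2, which called none of the 6. With the GC correction NLRC5 was not called (-0.65), whereas HLA-E (0.56) and B2M (-0.53, in place of -0.19) were. Without ABBV-075 replicate 3, HLA-B (-0.56) and HLA-C (-0.40) passed instead, and without ABBV-075 replicate 1, HLA-E (0.56) and B2M (-0.33) passed.

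HLA-E rose with ABBV-744 alone, most clearly at the high dose. It read 97.5, 106 and 85.4 CPM with ABBV-744 low and 109, 115 and 111 CPM with ABBV-744 high, and all 6 values lay above the DMSO libraries. It rose by 0.55 ± 0.10 on the log2 scale at the high dose (1.47-fold, adjusted p = 0.000343 by edgeR's quasi-likelihood test), a call kept in all 16 alternatives (0.44 to 0.59). At the low dose it rose by 0.35 ± 0.11 (adjusted p = 0.0321 by edgeR's quasi-likelihood test), a call kept in 6 of 16 alternatives and lost, at 0.17, with the GC correction and in 4 of the 6 fits that left out a library. B2M read 206, 194 and 239.6 CPM with ABBV-744 high and fell by 0.34 ± 0.092 (adjusted p = 0.0120 by edgeR's quasi-likelihood test), a call lost with the GC correction (-0.18) and without DMSO replicate 2 (-0.30). HLA-B, HLA-C and NLRC5 did not pass at either dose, and HLA-F had too few counts to be tested. Over all genes tested, 18.9% were called at the low dose and 15.3% at the high dose, beside 1 of 5 and 2 of 5 members.

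When IFNg was present, all 3 inhibitor treatments lowered the classical heavy chains HLA-B and HLA-C, while NLRC5 did not pass the test. HLA-B read 101, 107 and 118 CPM with IFNg+ABBV-075, 108, 108 and 114 CPM with IFNg+ABBV-744 low and 117, 107 and 113 CPM with IFNg+ABBV-744 high, all below the IFNg libraries and all above every library without IFNg. Against IFNg alone it fell by 0.61 ± 0.098, 0.57 ± 0.086 and 0.58 ± 0.095 on the log2 scale, with adjusted p of 1.68e-06, 1.38e-06 and 8.61e-06 by edgeR's quasi-likelihood test. HLA-C read 169, 197 and 213, then 179, 166 and 174, and then 189, 163 and 193 CPM in the same order. It fell by 0.45 ± 0.098, 0.58 ± 0.084 and 0.55 ± 0.096, and these 6 calls held in every alternative run for them, at smaller sizes with the GC correction (between -0.27 and -0.35).

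HLA-E fell with ABBV-744 but did not pass with ABBV-075. It read 719, 822 and 841 CPM with IFNg+ABBV-075, 549, 529.5 and 576 CPM with IFNg+ABBV-744 low and 593, 566 and 614 CPM with IFNg+ABBV-744 high. Against IFNg alone, HLA-E fell by 0.63 ± 0.07 with ABBV-744 low (1.55-fold lower, adjusted p = 3.87e-09 by edgeR's quasi-likelihood test) and by 0.57 ± 0.081 with ABBV-744 high. Both calls held in all alternatives, at -0.31 and -0.28 with the GC correction. With ABBV-075 its log2 fold change was -0.13 ± 0.08 (adjusted p = 0.149 by edgeR's quasi-likelihood test), which became 0.13 with the GC correction, so no direction is given.

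HLA-F read 2.24, 2.72 and 2.41 CPM with IFNg+ABBV-075, which is in the range of the libraries without IFNg. It fell by 1.36 ± 0.33 on the log2 scale against IFNg alone (2.56-fold lower, adjusted p = 0.000718 by edgeR's quasi-likelihood test), on 8 to 10 counts per library against 20 to 26, and the call held in all 15 alternatives. HLA-F read 4.58, 4.52 and 5.53 CPM and 4.33, 5.04 and 2.77 CPM with IFNg and ABBV-744 at the low and the high dose, and neither difference from IFNg passed (-0.35 ± 0.28 and -0.65 ± 0.31).

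B2M read 612, 591 and 531 CPM with IFNg+ABBV-075, 611, 574 and 598 CPM with IFNg+ABBV-744 low and 622, 547 and 532 CPM with IFNg+ABBV-744 high. It fell by 0.24 ± 0.083, 0.18 ± 0.074 and 0.28 ± 0.086, past the test each time, although each call was lost in some leave-one-out fits, the lowest being -0.11 without IFNg replicate 1 for ABBV-744 low. The call for ABBV-744 low was kept in 8 of 16 alternatives and lost, among others, with library size only (-0.12) and with DESeq2 (-0.18). The B2M transcript has a GC content of 39.13%, against 55.06% to 60.27% for the other 6 members, and with the GC correction its values grew to -0.74, -0.86 and -0.82. NLRC5 read 131, 147 and 148 CPM with IFNg+ABBV-075, 146, 147 and 158 CPM with IFNg+ABBV-744 low and 131, 154 and 174 CPM with IFNg+ABBV-744 high, overlapping the IFNg libraries in each case. Its log2 fold changes against IFNg were -0.059 (95% interval -0.26 to 0.14), 0.049 (-0.13 to 0.23) and 0.042 (-0.17 to 0.26), and did not pass the test. With the GC correction they were 0.17, 0.39 and 0.31, all of them past the test, so the direction for ABBV-075 depended on it.

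With ABBV-075, ABBV-744 low and ABBV-744 high added to IFNg, 4 of 6 members were called each time, all lower, while 56.6%, 51.7% and 45.7% of all genes tested were called in either direction. Genes called lower were 3176 of 11187, 2706 of 11150 and 2534 of 11091. The median log2 fold change of the 6 members was -0.35, -0.46 and -0.56, beside a median over all genes of -0.0030, -0.017 and -0.030. These 3 comparisons share the same IFNg libraries.

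**Figure D3:**
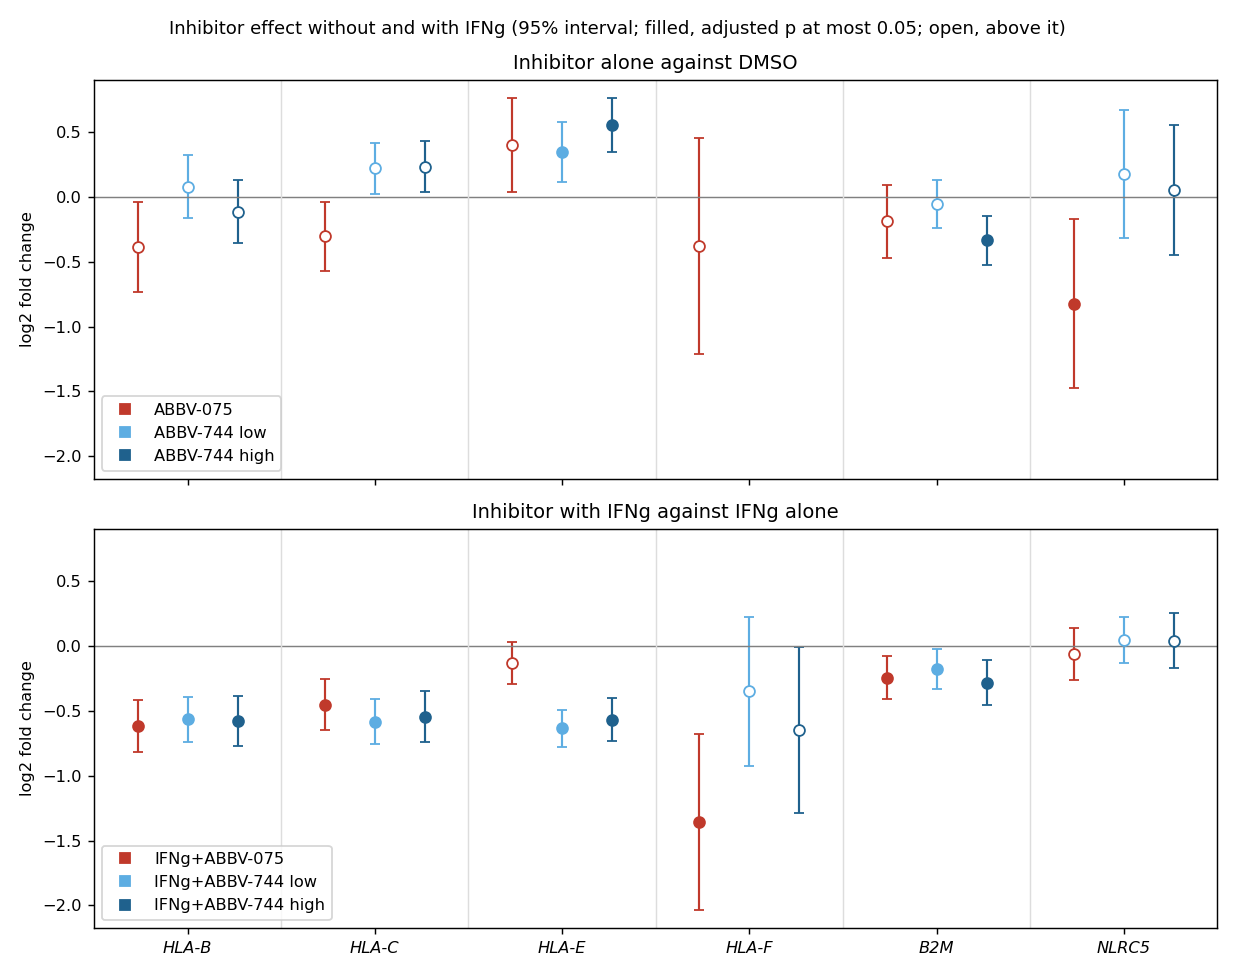
Log2 fold change with its 95% interval for each inhibitor treatment, alone against DMSO (upper panel) and with IFNg against IFNg alone (lower panel), with filled points at an adjusted p of at most 0.05. HLA-B and HLA-C lie between -0.45 and -0.61 in the lower panel, NLRC5 lies near 0 there, and HLA-F was not tested for ABBV-744 alone.

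The IFNg response persisted under each inhibitor. Against ABBV-075 alone, IFNg+ABBV-075 raised HLA-B by 1.26 ± 0.17, HLA-C by 0.96 ± 0.15, HLA-E by 2.98 ± 0.18, B2M by 1.29 ± 0.14 and NLRC5 by 4.75 ± 0.21 on the log2 scale. Under ABBV-744 low, IFNg raised HLA-B by 0.82 ± 0.11, HLA-C by 0.29 ± 0.094, HLA-E by 2.52 ± 0.10, B2M by 1.21 ± 0.087 and NLRC5 by 3.85 ± 0.14. Under ABBV-744 high the values were 1.03 ± 0.11 for HLA-B, 0.33 ± 0.11 for HLA-C, 2.40 ± 0.097 for HLA-E, 1.41 ± 0.10 for B2M and 3.99 ± 0.16 for NLRC5. The same 5 members passed in each of the 3 comparisons, and HLA-F did not pass with ABBV-744 (0.60 and 0.63) and was too low to test with ABBV-075.

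Across all genes, 1.05% were called for IFNg under ABBV-075, 60.2% under ABBV-744 low and 40.9% under ABBV-744 high, and the study's thresholds were passed by 0.594%, 5.33% and 2.09%, with HLA-E and NLRC5 past them in all 3. The shares under ABBV-744 fell to 32.6% and 28.1% with the GC correction. There, HLA-C under ABBV-744 low rose by 0.76 instead of 0.29, while B2M rose by 0.31 instead of 1.21, and HLA-F, at 1.06 instead of 0.60, was then called. HLA-C was the weakest of these calls, and 2 leave-one-out fits lost it at either dose of ABBV-744 (lowest 0.26 and 0.28), as did 1 for ABBV-075.

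**Figure D4:**
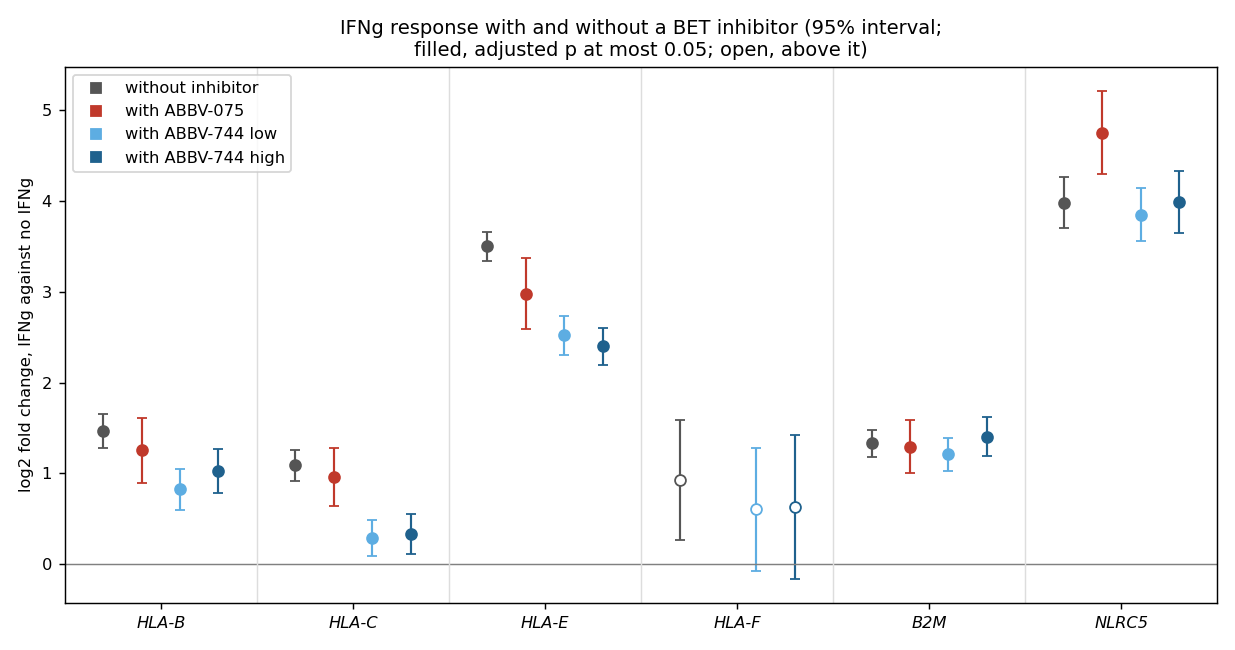
Log2 fold change of IFNg against the matching group without IFNg, with its 95% interval, in cells without inhibitor and with each inhibitor treatment, with filled points at an adjusted p of at most 0.05. The HLA-E response is 3.50 without inhibitor and 2.52 and 2.40 with ABBV-744, whereas the B2M response lies between 1.21 and 1.41 in all 4. With the GC correction, which is not drawn, the responses with ABBV-744 low and high were 0.31 and 0.78 for B2M and 2.96 and 2.72 for HLA-E.

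Whether the IFNg response differed between cells with and without an inhibitor was tested as an interaction, the log2 IFNg response with the inhibitor minus that without it. The same value is the inhibitor effect with IFNg minus the inhibitor effect without IFNg, so a change in either moves it. For ABBV-075 no member was called by edgeR's quasi-likelihood test, where 0.0347% of all genes were, 2 of the 6 members had an unadjusted p under 0.05, and DESeq2 called 0. The 2 members were HLA-E (-0.55 ± 0.19) and NLRC5 (0.75 ± 0.28), while HLA-B and HLA-C were at -0.24 and -0.16. For ABBV-744 low the interaction was -1.01 ± 0.12 for HLA-E (adjusted p = 1.45e-07 by edgeR's quasi-likelihood test), -0.83 ± 0.12 for HLA-C and -0.67 ± 0.14 for HLA-B. For ABBV-744 high it was -1.10 ± 0.12 for HLA-E (adjusted p = 3.29e-08 by edgeR's quasi-likelihood test), -0.76 ± 0.14 for HLA-C and -0.44 ± 0.14 for HLA-B. HLA-F, B2M and NLRC5 did not pass at either dose, with intervals of -0.64 to 0.32 and -0.51 to 0.53 for NLRC5.

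The 3 of 6 members called for ABBV-744 low stand beside 51.6% of all genes, and the 3 of 6 for ABBV-744 high beside 33.5%, called in either direction. These members were all lower, beside 3039 of 11451 and 1712 of 11428 genes called lower. The median interaction of all genes was -0.14 for ABBV-744 low, and 0.043 when libraries were scaled by their size only, under which HLA-E, HLA-C and HLA-B were at -0.82, -0.65 and -0.49 and still called. With the GC correction the HLA-E calls remained at both doses (-0.49 and -0.72), HLA-C remained at the high dose (-0.45) and was lost at the low dose (-0.25), and HLA-B was lost at both (-0.26 and -0.11). B2M moved the other way, from -0.15 to -1.11 at the low dose and from 0.078 to -0.64 at the high dose, and was then called. HLA-B at the high dose was also lost without replicate 2 (-0.25), without replicate 3 (-0.49) and with library size only (-0.35). Reads aligned to several places took 66.2% to 69.4% in the ABBV-744 low libraries and 57.5% to 59.6% in the IFNg+ABBV-744 low libraries, which do not overlap, against 56% to 61% for DMSO and 58.3% to 66.4% for IFNg, and the part of this shift in the HLA values was not tested.

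**Figure D5:**
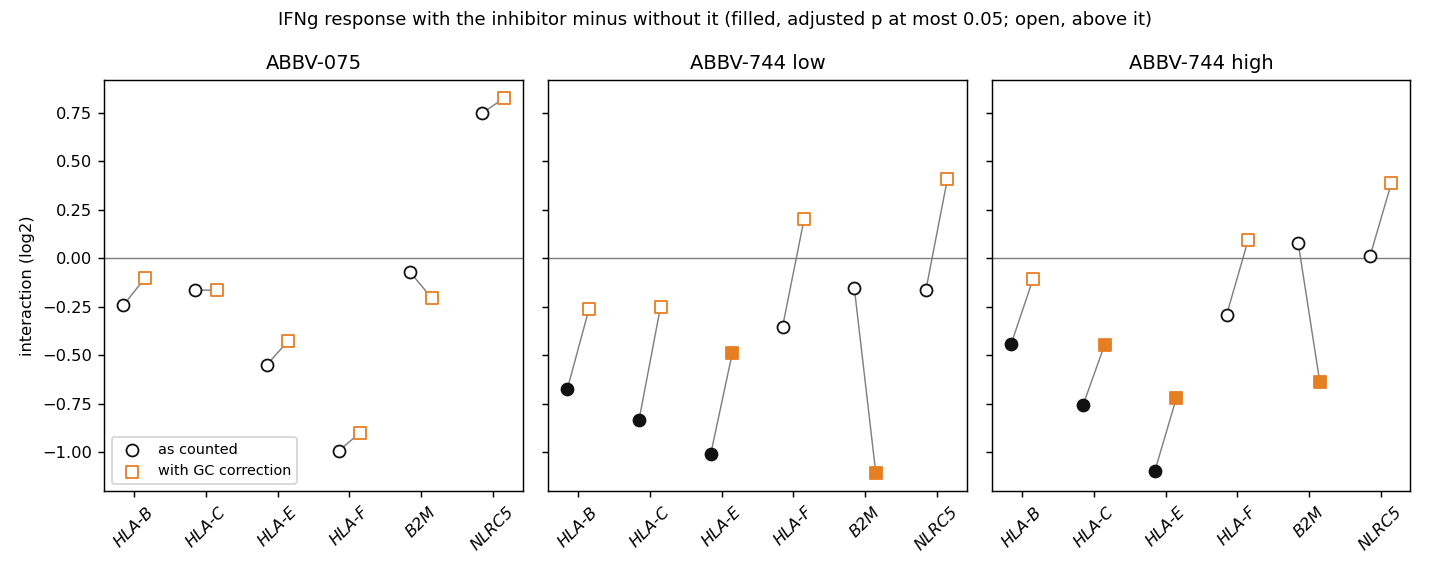
Interaction of IFNg with each inhibitor treatment (log2 scale) for 6 genes, as counted (black circles) and with the GC correction (orange squares), with filled points at an adjusted p of at most 0.05. HLA-E stays below 0 in all 6 values, whereas B2M goes from -0.15 to -1.11 with ABBV-744 low.

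ABBV-075 and ABBV-744 were given at a matched dose of 50 nM, although a common treatment time is not given. Without IFNg, HLA-C was lower with ABBV-075 than with ABBV-744 low, with a log2 fold change of -0.50 ± 0.12 (adjusted p = 0.00975 by edgeR's quasi-likelihood test), and so was NLRC5, at -0.97 ± 0.28 (adjusted p = 0.0187 by the same edgeR test). HLA-B, at -0.44 ± 0.16, lay just outside the threshold, with an adjusted p of 0.05002 by edgeR's quasi-likelihood test. HLA-E and B2M did not pass, with intervals of -0.31 to 0.46 and -0.41 to 0.20. These 2 of 5 members stand beside 40.8% of all genes, and both calls were lost with the GC correction (HLA-C -0.15, NLRC5 -0.61), which called HLA-E (0.40) and B2M (-0.77) instead. NLRC5 was also lost without ABBV-075 replicate 1 (-0.72) and without ABBV-744 low replicate 1 (-0.92) or 2 (-0.89), and HLA-C without ABBV-075 replicate 2 (-0.46).

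With IFNg, HLA-E was higher with ABBV-075 than with ABBV-744 low by 0.57 ± 0.081 (1.49-fold, adjusted p = 2.57e-07 by edgeR's quasi-likelihood test), and the call held in all 16 alternatives (0.45 to 0.66). HLA-F was lower with ABBV-075, at -0.93 ± 0.35 (adjusted p = 0.0362 by edgeR's quasi-likelihood test), a call lost whichever of the 6 libraries was left out (-1.02 to -0.84). HLA-B, B2M and NLRC5 did not pass, with intervals of -0.17 to 0.22, -0.15 to 0.17 and -0.21 to 0.15. HLA-C was at 0.21 (0.025 to 0.39) and did not pass either, but it was called without IFNg+ABBV-075 replicate 1 (0.31). NLRC5 was called with the GC correction (-0.21). Of all genes, 33.7% were called.

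The doses of ABBV-744 differ 10-fold. Without IFNg, 0 of 5 members were called by edgeR's quasi-likelihood test and 0 by DESeq2, beside 0.0274% of all genes, and 1, B2M at -0.28 (-0.50 to -0.057), had an unadjusted p under 0.05. With IFNg, 0 of 6 were called by edgeR's quasi-likelihood test, 0 by DESeq2 and 0 at an unadjusted p under 0.05, beside 1.7% of all genes. The intervals of the difference between doses with IFNg were -0.13 to 0.24 for HLA-B, -0.071 to 0.27 for HLA-C, -0.023 to 0.28 for HLA-E, -0.90 to 0.43 for HLA-F, -0.19 to 0.11 for B2M and -0.13 to 0.25 for NLRC5.

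Ordered by mean level, the 8 groups took a different order for each member. IFNg alone was the highest group for HLA-B (166 ± 4.05 CPM, SD, n = 3), HLA-C (263 ± 28.1 CPM), HLA-E (867 ± 17.5 CPM), HLA-F (6.29 ± 0.696 CPM) and B2M (681 ± 53.8 CPM). The difference from the next group did not pass the test for HLA-E (IFNg+ABBV-075) or HLA-F (IFNg+ABBV-744 low). For NLRC5 the 4 groups with IFNg lay at 153 ± 21.3, 150.2 ± 6.82, 147 ± 13.1 and 142 ± 9.86 CPM, in the order IFNg+ABBV-744 high, IFNg+ABBV-744 low, IFNg and IFNg+ABBV-075, and neighbours overlapped. The lowest group was ABBV-075 for HLA-B, HLA-C and NLRC5 (46.4 ± 9.03, 101 ± 11.1 and 5.41 ± 1.58 CPM), DMSO for HLA-E (76.6 ± 5.95 CPM), ABBV-744 high for B2M (213 ± 23.7 CPM) and IFNg+ABBV-075 for HLA-F (2.46 ± 0.244 CPM). Among the 3 groups with IFNg and an inhibitor, neighbours overlapped for HLA-B, HLA-C and B2M, while for HLA-E IFNg+ABBV-075 (794 ± 65.6 CPM) lay clear of IFNg+ABBV-744 high (591 ± 24.3 CPM).

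Most genes that supply and load class I peptides rose with IFNg. Of 14 genes of peptide supply and loading, 11 rose and none fell, where 3.46% of all genes were called, with a median log2 fold change of 1.52 beside -0.0023 for all genes. The largest were PSMB9, an immunoproteasome subunit (4.49 ± 0.14), TAP1, a subunit of the peptide transporter (3.45 ± 0.08), and PSMB8, another immunoproteasome subunit (2.48 ± 0.15). When ABBV-075 was added to IFNg, 12 of the 14 fell and none rose (median -0.61), beside 56.6% of all genes called in either direction, led by PSMB8 (-1.24), TAPBPL (-0.96), a relative of tapasin, and PDIA3 (-0.94), a disulfide isomerase of the loading complex. With ABBV-744 low 8 fell and 2 rose (median -0.40), beside 51.7% of all genes, and with ABBV-744 high 11 fell and 1 rose (median -0.34), beside 45.7%. ERAP2, a peptidase that trims class I peptides, rose by 0.98 and 0.56 against IFNg alone with the low and high dose. Without IFNg it fell at both doses of ABBV-744, as the largest change past the test in this list. Its counts were 67, 92 and 108 in DMSO, 38, 28 and 31 with ABBV-744 low, and 42, 29 and 38 with ABBV-744 high. Without IFNg, 8 of the 14 fell with ABBV-075 (PSMB8 -1.86, TAP2 -1.23), 2 rose and 2 fell with ABBV-744 low, and 1 rose and 4 fell with ABBV-744 high, beside 39.3%, 18.9% and 15.3% of all genes.

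Of 14 factors known to act at class I promoters, 13 could be tested. With IFNg present, ABBV-075 raised 5 and lowered 3, ABBV-744 low raised 5 and lowered 2, and ABBV-744 high raised 6 and lowered 1, which is near the 56.6%, 51.7% and 45.7% of all genes called. CREB1, which binds the X2 box, had the largest value each time (1.65, 1.44 and 1.46), followed by NFYB, an NF-Y subunit (1.06, 1.03 and 1.09), and RFXAP, an RFX subunit (0.92, 1.00 and 0.77). IRF1, which rose with IFNg, was at -0.039, -0.038 and -0.16 and did not pass. Genes of this and the other lists were not followed through the GC correction. Over all genes, these 3 comparisons had 270, 216 and 143 raised past the study's thresholds, and 133, 18 and 16 with that correction.

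Genes that resemble class I heavy chains were mostly not called with IFNg. Of 14 class I-like genes, 7 were tested for IFNg and 1 rose, MICB, a stress ligand of the NKG2D receptor (1.10 ± 0.14). With IFNg present, 5 of 6 tested fell with ABBV-075, led by MR1, which presents vitamin metabolites (-1.27), MICB (-1.08) and HFE, the hereditary haemochromatosis protein (-0.71). With ABBV-744, 3 of 6 fell at each dose (HFE -1.09 and -0.98). The shares of all genes called in either direction were 56.6%, 51.7% and 45.7%, and 3176 of 11187, 2706 of 11150 and 2534 of 11091 genes were called lower. Class II genes were near the limit of detection, since 9 of 12 had at most 3 counts in every library and 6 had none. CD74, the class II invariant chain, was the 1 tested and rose with IFNg (0.63 ± 0.14), and CIITA, the class II counterpart of NLRC5, had 0 counts in each of the 12 libraries without IFNg and 2 to 8 in each of the 12 with it. In the NLR family to which NLRC5 belongs, 2 of 11 genes were tested for IFNg and NOD1 rose (1.07 ± 0.24). Of 12 class I pseudogenes and antisense transcripts, 6 were listed and 2 passed the filter on low counts for IFNg, with log2 fold changes of 0.58 ± 0.27 for the pseudogene HLA-H and 0.25 ± 0.36 for HLA-F-AS1, and neither passed. These lists were chosen with earlier results of the data known, so their counts are not independent evidence of a direction.

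The genes most like each member over the 8 group means of log2 CPM were described by Pearson's r, with no test, since all groups share their libraries between genes and 4 of the 8 have IFNg. NLRC5 was most like PSMB9 (0.996), TAP1 (0.994) and RNF213 (0.994), and HLA-E like REC8 (0.995), ISG15 (0.994) and IFI6 (0.993). For B2M these were SP110 (0.992), PSMB8-AS1 (0.987) and TRIM21 (0.987), for HLA-B TMEM140 (0.989), CD40 (0.989) and ZNFX1 (0.986), and for HLA-C NOD1 (0.989) and CALM3 (0.974). HLA-F, at few counts, was most like LOC401585 (0.984), C1S (0.971) and PIK3AP1 (0.961). Among the members, r was 0.98 for NLRC5 with HLA-E and with B2M, 0.95 for HLA-B with HLA-C, and 0.59 for HLA-E with HLA-F.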

How the data were processed

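Total RNA of HepG2 cells was depleted of ribosomal RNA and made into directional libraries. Per the labels and the study's methods, the authors trimmed reads with Trimmomatic 0.33, aligned them to hg38 (GRCh38) with STAR 2.7.1 and deposited unnormalized counts by gene symbol, 1 file per library. Reads aligned to several places are not in these counts. The annotation used for counting is not given in the sources used here. The labels number the replicates but do not say whether they are separate cultures. The study's methods call its samples independent and describe experimental triplicates for DMSO and ABBV-075. They do not describe the ABBV-744 and IFNg groups, so p-values may measure technical spread.

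Same-strand counts were tested here with edgeR 4.0.16 in R 4.3.3 (filterByExpr, TMM, glmQLFit, glmQLFTest, Benjamini-Hochberg over all genes tested, no covariates) on the libraries of the groups compared. Each SE was taken as the size of the log2 fold change over the square root of F, and 95% intervals use the test's degrees of freedom. A gene passed at an adjusted p of at most 0.05. Log2 CPM used a prior count of 2. Groups with 3 counts or fewer in every library were at the floor. Wherever groups are said not to overlap, the share of all genes that separate in that way was not counted. Alternatives were RLE, library size only, DESeq2 1.42.0, no filter, at least 10 counts in every library, both strands together, all 24 libraries, a replicate block, a GC correction (lowess, span 0.3), both of these, each library left out, a prior count of 0.5, and scaling of levels. The fits of IFNg against DMSO and of the interaction with ABBV-075 were tested on simulated counts, in which no GC trend was built. Of genes changed by 1 log2 unit, 93% and 67% were called, in that order, so a change of that size can be missed in the interaction. Members and gene lists were chosen with earlier results of these data known. All 7 members are named, with at most 3 genes of each list per comparison, and up to 3 most alike genes per member; a few of these are not reported here.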

Additional observations from a re-analysis of the deposited data

Results flagged for a closer look

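The IFNg response of 3 heavy chain genes differed between cells with and without ABBV-744, as tested by the interaction term of edgeR's quasi-likelihood test. With ABBV-744 low the log2 response was changed by -1.01 for HLA-E, -0.83 for HLA-C and -0.67 for HLA-B. With ABBV-744 high it was changed by -1.10 for HLA-E, -0.76 for HLA-C and -0.44 for HLA-B. Over all genes, 51.6% and 33.5% were called in either direction for these interactions at the low and the high dose. The 3 of 6 members called were all lower, beside 3039 of 11451 and 1712 of 11428 genes called lower. The 3 IFNg+ABBV-744 libraries at either dose lay below the 3 IFNg libraries for each of these genes. They did so for B2M and HLA-F too, whose interactions were not called without the GC correction. That separation is not the interaction, and its share over all genes was not counted. The interaction also holds the inhibitor effect without IFNg. At the low and the high dose that effect was 0.35 and 0.55 for HLA-E. It was 0.22 and 0.23 for HLA-C and 0.079 and -0.11 for HLA-B, none of which passed the test. The interaction tests at both doses use the same DMSO and IFNg libraries. The GC correction reduced the size of all 6 interaction values and ended 3 of the calls, HLA-B at both doses (-0.26 and -0.11) and HLA-C at the low dose (-0.25). Groups of 3 libraries are too small for the check for a single library that stands apart.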

How the results depend on the processing

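Of 46 member calls in the 17 comparisons, 31 kept their direction and their side of the threshold in every alternative, and 31 of 51 values that were not called stayed so. In 716 and 768 refitted values of these, 64 calls were lost, 38 were gained in the same direction and 4 in the opposite one, and the causes were not tested. The number of members called for ABBV-075 against DMSO was 1, and became 3 with library size only, 0 with DESeq2, 2 with no filter, 4 with all 24 libraries in the fit, 2 (HLA-E and B2M) with the GC correction and with the replicate block and GC correction together, and 0 to 3 when a library was left out. For ABBV-744 low against DMSO it went from 1 to 0 with library size only, DESeq2, all 24 libraries, the replicate block, the GC correction and the block with it, and was 0 to 1 when a library was left out. For ABBV-744 high against DMSO it went from 2 to 1 with the GC correction, alone or with the block, and was 1 to 3 when a library was left out. ABBV-075 against ABBV-744 low had 2 calls, 1 with DESeq2 and 1 to 3 when a library was left out. IFNg+ABBV-075 against IFNg+ABBV-744 low also had 2, which became 1 with DESeq2, no filter and at least 10 counts, 4 with the block and GC correction, and 1 to 2 when a library was left out. ABBV-744 high against low had 0, and 1, B2M, with the replicate block (-0.28) and with the block and GC correction (-0.42). NLRC5 in IFNg+ABBV-075 against IFNg changed from -0.059 to 0.172 with the GC correction and 0.173 with the block added. B2M in the interaction with ABBV-744 high changed from 0.078 to -0.637 and -0.635. Over all genes, the GC correction changed the calls from 2102 to 1195 for ABBV-744 low against DMSO, from 5766 to 3840 for IFNg+ABBV-744 low against IFNg, from 6675 to 3614 for IFNg under ABBV-744 low, and from 5905 to 2336 and 3827 to 1914 for the interactions with ABBV-744 low and high. With the block added these were 900, 3801, 3740, 2298 and 1821. DESeq2 called 1139 for ABBV-744 low against DMSO, 982 in place of 1700 for ABBV-744 high, and 88 in place of 187 for the doses with IFNg, where the GC correction gave 98 and all 24 libraries 2. IFNg under ABBV-075 had 115 calls, and 241 with no filter, 351 with all 24 libraries, 212 with the block, 228 with the GC correction and 282 with both. The doses without IFNg had 3, and 5 with DESeq2, 13 with no filter, 9 with all 24 libraries, 320 with the block, 16 with the GC correction and 144 with both. The interaction with ABBV-075 had 4, and 12 with DESeq2, 45 with no filter and 27 with the GC correction, with or without the block. Leaving out 1 library or replicate number gave as few as 708 and 793 calls for ABBV-744 low and high against DMSO, 2651 in place of 4481 for ABBV-075 against ABBV-744 low, 1901 for the interaction with ABBV-744 high, 64 to 473 for the doses with IFNg, up to 299 for IFNg under ABBV-075, 0 to 10 for the doses without IFNg and 0 to 43 for the interaction with ABBV-075. With library size only, higher against lower calls went from 979 and 1123 to 415 and 1220 for ABBV-744 low against DMSO, from 832 and 868 to 475 and 1067 for ABBV-744 high, from 310 and 78 to 250 and 204 for IFNg against DMSO, from 1860 and 1892 to 1166 and 2836 between the inhibitors with IFNg, from 155 and 32 to 76 and 92 between the doses with IFNg, and from 2866 and 3039 to 3386 and 1740 and from 2115 and 1712 to 2292 and 1095 for the interactions with ABBV-744 low and high. The labels do not say whether the replicate numbers pair samples. In no comparison did all 3 pairs correlate above 0.1, though single pairs reached 0.336, so pairing was not settled and the block is given here alone. It gave 5 calls in place of 4 for IFNg+ABBV-075 against IFNg (HLA-E gained, -0.14), 3 in place of 4 for IFNg+ABBV-744 low against IFNg (B2M lost, -0.17) and 3 in place of 2 for IFNg+ABBV-075 against IFNg+ABBV-744 low (HLA-C gained, 0.20), and it changed no call in the comparisons not named in this paragraph. Differences of heavy chain genes from B2M moved by less than 1 SD with a prior count of 0.5 and with both strands together, and 3 of 56 group levels moved by more than 1 SD with library size only. Depth limits HLA-G, at 0 to 2 counts, and HLA-F, at 6 to 26.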
